A study of Ovis aries and Bos taurus with 10 samples.

Results

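RNA of ovine fetal ovary was hybridized to the Affymetrix Bovine Genome Array after standard labeling (P1) and after double amplification followed by either of 2 ways of labeling (P2 and P3). These are 3 of the 10 arrays of the series, chosen by their protocol and tissue, with 1 array per protocol. The RNA was from fetal ovary at 132 days post coitum, and no breed, genotype or treatment is given. P1 used the one-cycle Affymetrix procedure on about 3 µg of total RNA. P2 took the RNA through the RiboAmp HS PLUS kit up to the second-round cDNA and made biotin-labeled cRNA from it by the Affymetrix procedure. P3 completed both rounds with the same kit and attached biotin to the amplified RNA (aRNA) with the Arcturus turbo kit. All RNA was extracted on RNeasy columns with a DNase step. The study writes of the ovine fetal ovary RNA as a single sample labeled in 3 ways, and the number of fetuses behind it is not given in the sources used here. There are no replicates, and every difference below is a description of single arrays without a test.

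A T7 amplification copies the polyadenylated tail end of a transcript into cDNA with a primer that carries an RNA polymerase promoter, and then transcribes the cDNA into many antisense copies. A second round starts from random primers on those copies, and the product becomes shorter with each round. The probes of a 3′ expression array read a stretch near the tail end, and the distance of that stretch from the tail differs between probe sets. Here the RNA was ovine and the probes were bovine, so the fit of the probes also differs between probe sets.

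The values are MAS5 signals in arbitrary units, which the authors scaled so that the trimmed mean of each array is 100. Of 24016 probe sets other than controls, 8064 had a signal of at least 100 on any of the 3 arrays and were compared. The minimum runs through a dense range: probe sets of IRAK1BP1 and TSPAN4 lay just inside, both with a highest signal of 100.1, and probe sets of SFRS18 and STAB1 just outside at 99.9. On P1, 6535 probe sets were at 100 or above, on P2 5952 and on P3 5608. The minimum was met on all 3 arrays by 4287 probe sets, on P1 alone by 1494, on P2 and P3 but not P1 by 703, on P2 alone by 461 and on P3 alone by 365. Differences are given as log2(signal + 20), so that 1 is a 2-fold difference for bright signals, while the difference of dim signals is understated.

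Of the 8064 probe sets, 3652 (45.3%) were kept, that is, within 2-fold of P1 under both protocols of double amplification. A further 1515 (18.8%) were at least 2-fold lower under both, 781 (9.69%) at least 2-fold higher under both, and 2116 (26.2%) were mixed. The losses were thus more frequent than the gains at this minimum. With a geometric mean of at least 100 over the 3 arrays instead, the order turned, with 570 lower (9.93%) and 671 higher (11.7%). Of the 8064, P2 taken by itself was lower than P1 for 1799 probe sets (22.3%) and higher for 1364 (16.9%), whatever P3 read. P3 was lower for 2081 (25.8%) and higher for 1484 (18.4%). At a 4-fold limit P2 had 738 lower and 128 higher probe sets, and P3 had 802 and 316. P2 and P3 are both set against the same P1 array, so any error of that array enters both comparisons with the same sign. Opposite calls were rare, with 17 probe sets higher on P2 and lower on P3 and 3 the other way round.

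**Figure D1:**
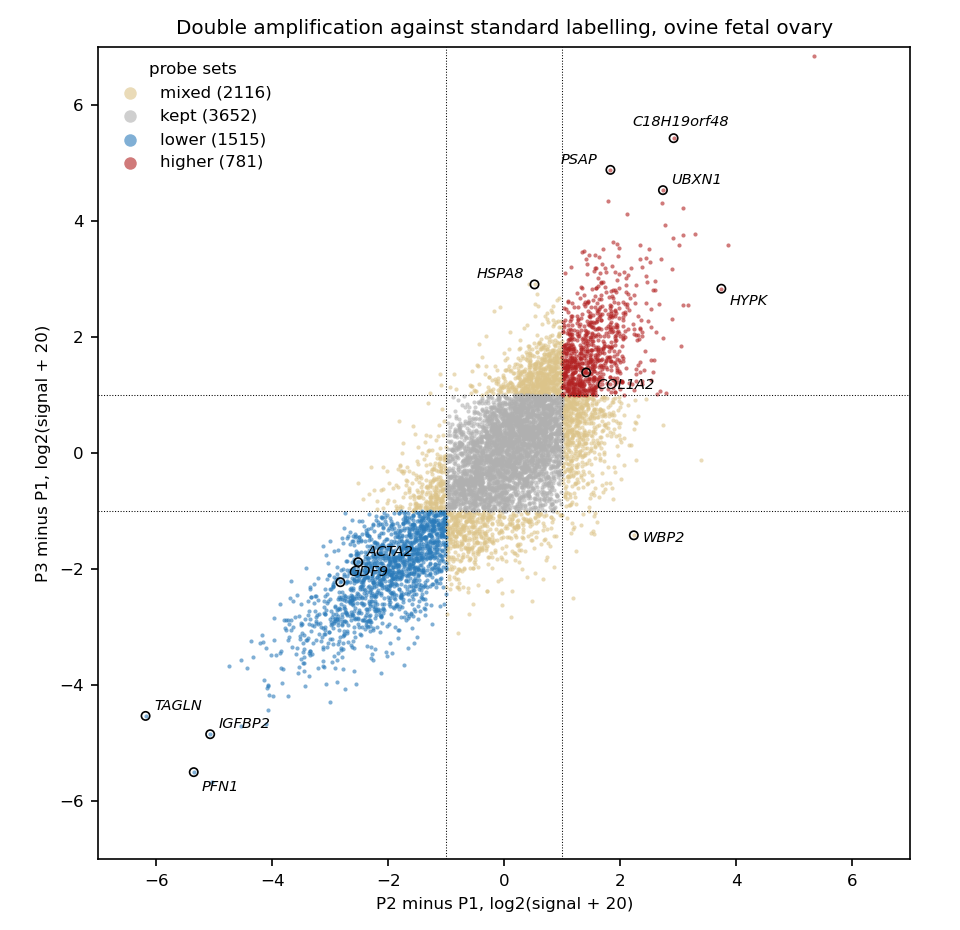
Each point is 1 of the 8064 probe sets, placed by its difference from P1 in log2(signal + 20) under P2 (horizontal axis) and P3 (vertical axis), with dotted lines at 2-fold and colors for lower (blue), kept (grey), higher (red) and mixed (tan). Both axes use the same P1 array, and points run along the diagonal from PFN1 and TAGLN at the lower left to UBXN1 and C18H19orf48 at the upper right, and WBP2 lies off it.

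The minimum itself favors one class. Of the 1515 lower probe sets, 1095 passed it on P1 alone, so that a lower signal on the other arrays was built into their choice, and 314 passed it on all 3 arrays. Of the 781 higher probe sets, 455 passed on all 3 arrays and 326 only through P2 or P3. With the minimum set instead on the bovine fetal ovary array, which was labeled by P1 and takes no part in the comparison, 7245 probe sets remained. Of these 15.3% were lower under both protocols, 54.0% kept and 6.89% higher. Over all 24016 probe sets, the share of lower ones was 14.6% at bovine signals of 100 to 200, 14.8% at 200 to 500, 17.1% at 500 to 1000, 19.8% at 1000 to 2000 and 19.5% above that, so losses were found at every level.

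For some control transcripts the array has separate probe sets along the RNA, from its 5′ end to its 3′ end, so that parts of one molecule can be compared. Cyclophilin, a peptidyl-prolyl isomerase, had a 5′ signal of 1255 on P1, 25.7 on P2 and 73.4 on P3. Its 3′ signal was 1439 on P1, 4432 on P2 and 14632 on P3. The ratio of the 3′ to the 5′ signal was 1.15 on P1, 172 on P2 and 199 on P3, with a 5′ signal below 100 on both double amplified arrays. In one transcript the 5′ end was thus far dimmer and the 3′ end brighter than after standard labeling.

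Of the messenger for the cap-binding factor eIF-4E, the 5′ signal was 145 on P1, 18 on P2 and 8.9 on P3, and the middle signal 401, 52.5 and 43.5. Its 3′ signal was 101, 93.5 and 55.0, so the 3′ end of this transcript was no brighter than on P1. The elongation factor EF1A differed again: its 5′ probe set read 13731 on P1, 380 on P2 and 833 on P3, while its 3′ probe set read 67.3, 21.5 and 34.3. With the bovine RNA under P1 that 3′ probe set read 2999. Among the bacterial spike transcripts, the 3′ end of dap read 320 on P1, 952 on P2 and 297 on P3, and its 5′ end read 107, 5.6 and 0.7. Whether these spikes were added to the RNA of all 3 arrays is not stated in the sources used here.

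**Figure D2:**
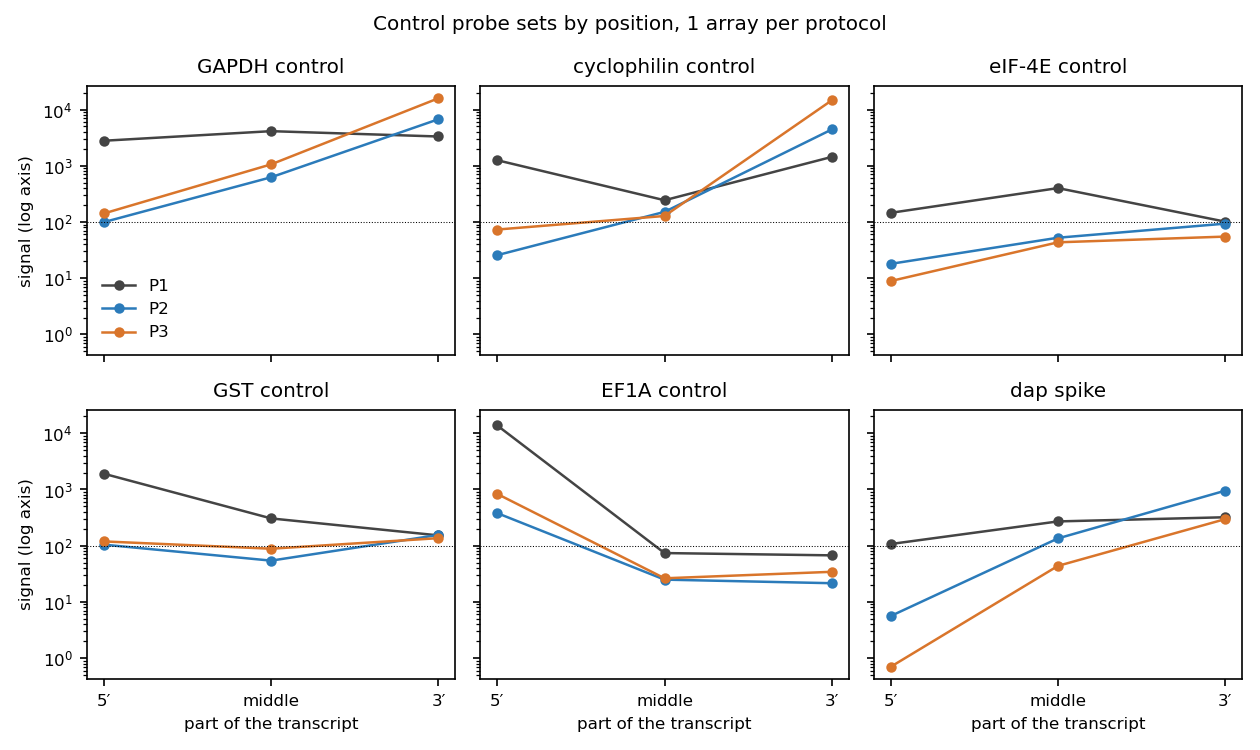
Signals (log axis) of the 5′, middle and 3′ probe sets of 6 control transcripts on the P1, P2 and P3 arrays, with a dotted line at 100. The P2 and P3 lines climb toward the 3′ end for GAPDH, cyclophilin and dap, with 3′ to 5′ ratios of 172 and 199 for cyclophilin, whereas EF1A is bright only at its 5′ end.

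For the description by genes, each of 9155 annotated symbols was represented by its brightest probe set, and 4806 genes were at the minimum. Of these 2387 (49.7%) were kept, 682 (14.2%) lower and 494 (10.3%) higher under both protocols. The median difference over these genes was 0.10 for P2 minus P1 and 0.04 for P3 minus P1, with quartiles of -0.71 and 0.71 for P2 and of -0.82 and 0.81 for P3. At a 4-fold limit 279 genes were lower and 70 higher on P2, and 311 lower and 209 higher on P3, so both tails were well filled on P3.

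The deepest losses under both protocols included regulators of actin. PFN1, profilin, which binds actin monomers, had a signal of 1950 on P1, 28.2 on P2 and 23.5 on P3, differences of -5.35 and -5.50. It was at least 19.5-fold lower when every signal under 100 is read as 100. TAGLN, the smooth muscle protein transgelin, read 1870, 6.0 and 61.7. MARCKS, which links actin to the plasma membrane, read 1987, 54.9 and 137, and its relative MARCKSL1 read 933, 27.6 and 63.7. All 4 were bright after standard labeling and far dimmer after double amplification, with MARCKS still above 100 on P3.

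Growth factors and secreted proteins were also among these genes. IGF2, the main insulin-like growth factor of fetal tissue, had a signal of 2183 on P1, 74.6 on P2 and 64.6 on P3 (-4.54 and -4.70). IGFBP2, one of the proteins that bind it, read 1468, 24.3 and 31.7 (-5.07 and -4.85). SERPING1, the inhibitor of the first complement component, read 318, 3.6 and 1.7. IGF2 was at least 21.8-fold and IGFBP2 at least 14.7-fold lower.

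The other 5 of the 12 largest losses have various roles. The endosomal GTPase RAB5B read 1228 on P1, 52.8 on P2 and 28.9 on P3, and the splicing factor HNRNPL 1043, 42.8 and 46.6. The chaperone of the endoplasmic reticulum CALR read 1806, 58.6 and 135. The ATPase ABCF2 and the ubiquitin ligase COP1, with P1 signals of 428 and 449, were between 0.8 and 20 on P2 and P3. IGF2 and HNRNPL each had another probe set at the minimum, and both of these were lower as well, at 180, 22.8 and 14.2 for IGF2 and 255, 5.1 and 2.3 for HNRNPL. That second IGF2 probe set has the cluster number of the CALR probe set in its name, so its annotation is uncertain. Over all probe sets, the deepest difference under P3 was that of a probe set without a gene symbol, with 10227 on P1, 292 on P2 and 180 on P3, and 10975 with bovine RNA.

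The 12 largest gains also had varied roles. PIN4, a peptidyl-prolyl isomerase, had a signal of 70.3 on P1, 741 on P2 and 1208.5 on P3 (3.08 and 3.77). HYPK, a chaperone at the ribosome, read 420, 5872 and 3117 (3.74 and 2.83). UBXN1, which binds ubiquitin, read 258, 1829 and 6405 (2.74 and 4.53). These were dim to moderate after standard labeling and among the brighter genes after double amplification. C18H19orf48 read 32.9, 380 and 2258, the coatomer subunit COPZ2 73.4, 735 and 1106, and the tRNA methyltransferase METTL6 122, 1036 and 1259. The acid phosphatase ACP5 read 149, 1139 and 2543 and the thyroid hormone receptor THRA 513, 4512 and 3090. Of the 12 genes, 5 had a second probe set at the minimum, and none of these was higher under both protocols. That of COPZ2 was lower at 240, 46.3 and 62.7, and those of METTL6 (196, 92.0 and 108) and IFT122 (104, 86.3 and 126) were kept. Those of HYPK (171, 227 and 436) and TRIB2 (151, 113 and 61.7) were mixed. NUDT14, DTX1, IFT122 and TRIB2 made up the 12, with P1 signals of 131 to 365, P2 signals of 968 to 2243 and P3 signals of 1246 to 2956. C18H19orf48 and PIN4 were at least 3.8-fold and 7.41-fold higher. The highest difference over all probe sets belonged to one without a gene symbol, which read 43.6, 2562 and 7259, and 7771 with bovine RNA under P1.

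**Figure D3:**
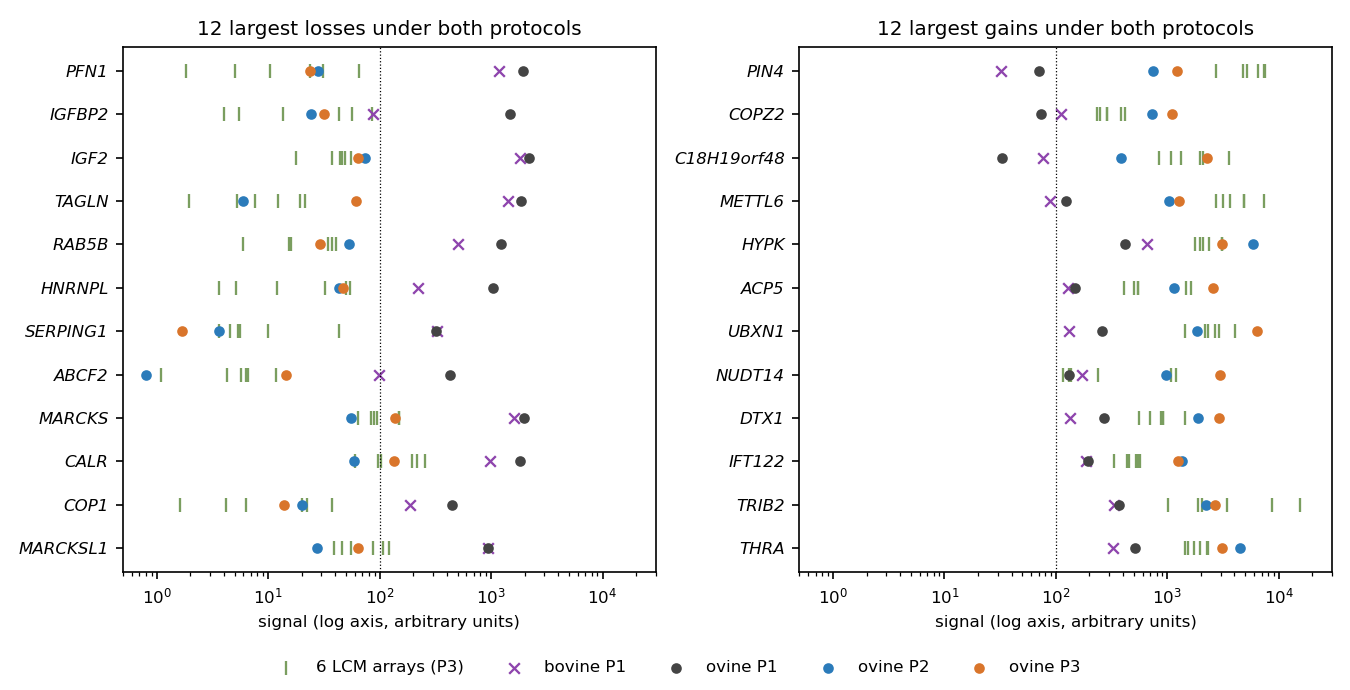
Signals (log axis) of the 12 largest losses and the 12 largest gains on all 10 arrays: ovine P1, P2 and P3, bovine P1, and the 6 arrays of laser-captured oocytes and granulosa cells, which were labeled by P3. The bovine P1 crosses lie nearer the ovine P1 points for most genes, and the LCM marks lie on the side of P2 and P3.

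The other 7 arrays were not used to choose these genes. On the bovine P1 array, from fetal ovary of the other species, 10 of the 12 losses had a signal of at least 100 (median 719). On the 6 arrays of laser-captured (LCM) cells from newborn lambs, all labeled by P3, 9 of the 12 were below 100 on every array. PFN1 ranged there from 1.82 to 65.4, TAGLN from 1.96 to 21.6 and IGF2 from 17.9 to 55.5. The 12 gains were at 100 or above on all 6 LCM arrays, with PIN4 between 2727 and 7589 and METTL6 between 2756 and 7421. On bovine P1, 9 of the 12 gains were at 100 or above (median 131, highest 651).

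Over the classes, the shares on bovine P1 lay close together, while those on the LCM arrays lay apart. Of the 1515 lower probe sets, 66.3% had a signal of at least 100 on bovine P1 and 60.7% were below 100 on all 6 LCM arrays. Of the 3652 kept probe sets 75.3% were at 100 or above on bovine P1 and 10% were below 100 on all LCM arrays. Of the 781 higher ones 61.7% were at 100 or above on bovine P1, 4.23% were below 100 on all LCM arrays and 69.9% were at 100 or above on all of them. On the LCM arrays the cells and the age differ as well as the labeling, and these cannot be told apart.

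Gene classes were then described by 28 lists of genes, each read by the number of its genes that were lower, kept or higher beside the 14.2%, 49.7% and 10.3% of all genes. In the 20 lists with 10 or more genes at the minimum, the median difference lay between -0.93 and 0.48 for P2 and between -0.61 and 0.43 for P3. No median of these lists was 2-fold away from P1, and within each list lower and kept genes stood side by side. The signal minimum enters these counts: of the 682 lower genes 405 were at it on P1 alone and had to be dimmer on P2 and P3 to be so. This was so for 9 of 10 lower zinc finger genes, 8 of 12 of the spliceosome and 7 of 11 solute carriers. It was so for 4 of 5 lower insulin-like growth factor genes and 3 of 5 of smooth muscle. Of the cytosolic ribosomal proteins it was so for 0 of 12, and of the translation factors for 0 of 5. Some higher genes, BMP2, TEX14, STAG3 and ZNF470 among them, passed the minimum only through P2 or P3 and had to be brighter there.

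**Figure D4:**
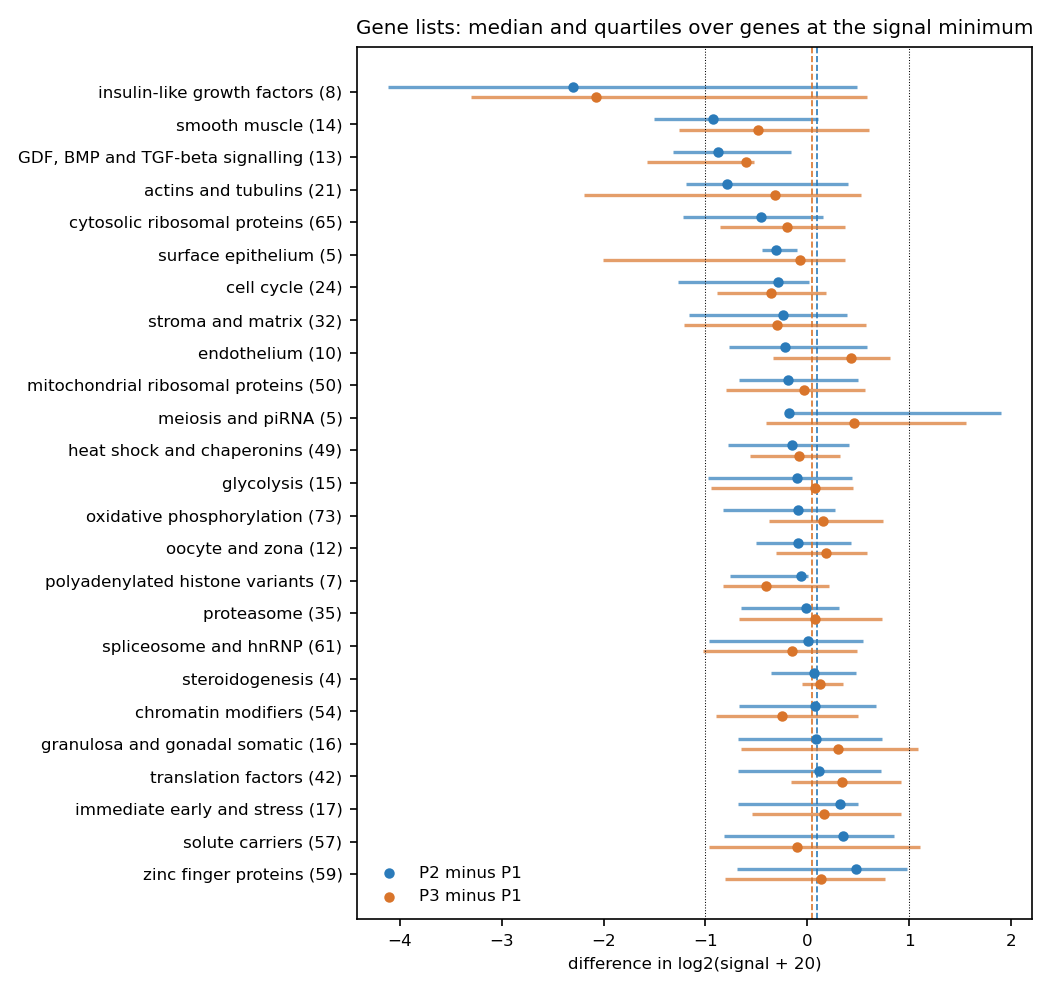
Median (points) and quartiles (bars) of the difference from P1 in log2(signal + 20) over the genes of each list at the signal minimum, with their number in brackets, for P2 and P3. Lists with 4 or more such genes are shown. Dashed lines mark the medians over all genes, 0.10 and 0.04, and dotted lines 2-fold. The insulin-like growth factors, of whose 5 lower genes 4 passed the minimum on P1 alone, have the lowest medians, -2.30 and -2.07.

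The insulin-like growth factor system had the lowest medians. Of its 12 genes on the array 8 were at the minimum, 5 were lower (62.5%), 1 was kept and 0 were higher, with medians of -2.30 on P2 and -2.07 on P3. IGF2, IGFBP2, IGFBP4 and IGFBP5 were at the minimum on P1 alone, so the share and the medians are partly set by the choice of genes and are given as a description. Besides IGF2 and IGFBP2, the lower genes were 3 further binding proteins: IGFBP4 read 352 on P1, 3.6 on P2 and 32.1 on P3, IGFBP5 196, 22.3 and 40.6, and IGFBP6 1942, 393 and 376. The receptor that clears IGF2, IGF2R, was kept at 995, 1508 and 1341, although its second probe set was lower at 179, 52.0 and 23.4. The 2 mixed genes were brighter: IGFBP3 read 1502, 2413 and 5416, and IGFBP7, which binds these factors weakly, 6748.5, 9297 and 14346. The ligand IGF1 (78.4, 71.9 and 24.7), the receptors IGF1R and INSR, and IGFBP1 were below 100 on all 3 arrays. The binding proteins of one family thus stood in different classes.

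Contractile and cytoskeletal genes showed the same spread. Of 14 smooth muscle genes at the minimum (of 16) 5 were lower (35.7%), 4 kept and 1 higher. Of the 5 lower ones 3 were at the minimum on P1 alone, so this share is partly set by the choice of genes. ACTA2, smooth muscle actin, read 4240 on P1, 724 on P2 and 1137 on P3, the calponin CNN2 422, 83.3 and 161 (its other probe set, at 238, 90.7 and 168, was mixed), and the intermediate filament protein desmin (DES) 188, 52.2 and 52.7. TPM1, a tropomyosin of the same filaments, was kept at 1902, 1855 and 1985, while TPM4 read 1743, 4289 and 3705. MYLK, the kinase that starts contraction, read 4428, 9573 and 5221. Genes of one contractile apparatus were thus lost, kept and brighter side by side.

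Of 21 genes of actins, tubulins and their partners (of 22), 5 were lower (23.8%), 8 kept and 2 higher. The tubulin TUBB read 3105, 304 and 547, the actin cross-linker FLNA 1282.5, 168 and 208, and the capping protein CAPZB 401, 16.6 and 25.8. ARPC4 of the actin-branching complex was kept at 225, 292 and 268, and its partner ARPC5 at 115, 158 and 99.0.

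Signaling by GDF, BMP and TGF-beta ligands controls early follicles. Of 13 genes of this list at the minimum (of 26) 4 were lower (30.8%), 6 kept and 1 higher, with medians of -0.87 and -0.61. The oocyte ligand GDF9 read 1084 on P1, 136 on P2 and 216 on P3. The target gene ID1 read 653, 92.4 and 45.4, and LTBP1, which holds latent TGF-beta in the matrix, 943, 122 and 109. The ligand BMP2 was the higher gene, at 18.7, 84.8 and 127, and it was at the minimum on P3 alone. The transducer SMAD2 (670, 725 and 575) and the receptor ACVR1 (583, 680 and 390) were kept, but another probe set of ACVR1 read 145, 17.2 and 20.9. The 13 other genes of the list, BMP15 among them at 40.4, 1.8 and 8.3, were below 100 on all 3 arrays.

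The oocyte genes were kept as often as all genes. Of 12 at the minimum (of 13), 1 was lower, 6 (50%) were kept, 5 mixed and 0 higher, with medians of -0.09 on P2 and 0.18 on P3. UCHL1, the neuronal and germ cell ubiquitin hydrolase, read 1591, 1461 and 1806, and OOEP, of the maternal complex at the oocyte cortex, 280, 267 and 238. The growth factor receptor KIT read 145, 397 and 231 at its brightest probe set, and 156, 12.2 and 11.6 and 179, 25.6 and 21.7 at the other 2 at the minimum, so its direction differs between probe sets. The sign of the P3 median depended on the processing: it was -0.02 under quantile normalization, and also -0.02 with all probe sets of a gene averaged. Of the meiosis and piRNA genes 5 of 9 were at the minimum. TEX14, of the bridges between germ cells, read 92.7, 405 and 601 and the meiotic cohesin STAG3 66.3, 304 and 235, while MAEL, which silences transposons, read 226, 29.9 and 50.8 at its brightest probe set and 117, 34.5 and 66.5 at another.

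Among 16 genes of granulosa and gonadal somatic cells at the minimum (of 22), 2 were lower, 6 kept and 2 higher. FOXL2, the transcription factor of ovarian identity, read 202 on P1, 4.7 on P2 and 3.5 on P3, at least 2.02-fold lower. SERPINE2, a protease inhibitor, read 1508, 576 and 296. INHBA, a subunit of activin, read 317, 1378 and 1317, and RSPO1, an ovarian WNT activator, 172, 624 and 543. INHA, the inhibin subunit, was kept at 248, 243 and 274. Transcripts of this list thus stood at the floor and among the brighter ones of the double amplified arrays.

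Matrix genes held some of the brightest signals. Of 32 stroma and matrix genes at the minimum (of 38), 7 were lower (21.9%), 15 kept and 4 higher. The chain COL1A1 of type I collagen read 7133 on P1, 755 on P2 and 528 on P3 (-3.21 and -3.71). The other chain of the same protein, COL1A2, read 7372, 19658 and 19337 (1.41 and 1.39) at one probe set and 12014, 10451 and 15482 at the other. SPARC, a collagen-binding protein, read 4997, 493 and 501, and ELN, elastin, 531, 33.5 and 18.3. FBLN5, needed for elastic fibers, was kept at 265, 259 and 329, and the leucine-rich repeat protein OGN at 386, 416 and 524. The chains of one collagen thus read in opposite directions at the brightest probe set of each gene.

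Of 65 cytosolic ribosomal protein genes at the minimum (of 69), 39 (60.0%) were kept, 12 (18.5%) lower and 0 higher, with medians of -0.45 and -0.19. RPL5 read 10450, 11333 and 10822 and RPL27A 7030, 6804 and 6792, while RPL32 read 4827, 370 and 586, RPS9 3407, 248 and 444, and RPL21 8914, 868 and 1589. Proteins of one particle thus lay at both ends, with the same signal or with a small part of it after double amplification.

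Of 73 genes of oxidative phosphorylation at the minimum (of 81), 45 (61.6%) were kept, 7 (9.59%) lower and 6 (8.22%) higher. NDUFA3 of complex I read 467, 63.0 and 96.6, NDUFB2 of the same complex 1228, 3563 and 5963 at its brightest probe set and 368, 178 and 170 at another, and NDUFB10 548, 535 and 520. Proteasome genes were kept in 21 of 35 cases (60.0%), with PSMC5 at 272, 281 and 278 and PSMD10 at 368, 77.7 and 43.6. Mitochondrial ribosomal proteins were kept in 29 of 50 (58.0%), with 7 lower and 6 higher. Of 49 chaperones 29 (59.2%) were kept, 6 lower and 2 higher, and of 42 translation factors 23 (54.8%) were kept, 5 lower and 6 higher. EIF4A2, an RNA helicase of initiation, read 5264, 592 and 392, and EIF3G, of the initiation factor that binds the small subunit, 1364, 3874 and 5518.

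Of 59 zinc finger genes at the minimum (of 114), 25 (42.4%) were kept, 10 (16.9%) lower and 7 (11.9%) higher, with ZNF207 at 155, 0.5 and 1.1 and ZNF470 at 53.2, 520 and 345. Of 54 chromatin modifiers 27 were kept, 5 lower and 3 higher. DNMT3A, a DNA methyltransferase, read 438, 70.7 and 42.7 at its brightest probe set and 75, 215 and 93 at another. SMARCA4, the ATPase of a remodeling complex, read 625, 1813 and 4567 at its brightest probe set and 156, 16.8 and 31.4 at another, while its complex partner SMARCB1 read 312, 56.1 and 27.3. The deacetylase HDAC1 was kept at 430, 374 and 382. Of 57 solute carriers at the minimum (of 175), 22 (38.6%) were kept, 11 lower and 8 higher. The mitochondrial carrier SLC25A6 read 3974, 411 and 500 at its brightest probe set and 97.4, 403 and 334 at its dimmest, and SLC25A20, the carnitine carrier, 174, 1067 and 2190.

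Of 15 glycolytic genes at the minimum 3 were lower, 7 (46.7%) kept and 1 higher: the kinase PKM read 352, 28.4 and 59.5, the isomerase GPI 1243, 1161 and 1372, and PGK1 195, 446 and 816. Of 24 cell cycle genes 5 were lower, 11 kept and 1 higher, with cyclin D1 (CCND1) at 224, 1.0 and 14.6, the mitotic activator CDC20 at 199, 196 and 216 and the checkpoint gene BUB3 at 1001, 2872 and 5849. Of 61 spliceosome and hnRNP genes 12 (19.7%) were lower, 31 (50.8%) kept and 3 higher. Of 17 immediate early and stress genes 3 were lower, 8 kept and 3 higher, with DDIT4, an inhibitor of mTOR, at 1356, 253 and 215 and MYC at 325, 312 and 380.

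Fewer probe sets differed between P2 and P3 than between either of them and P1. P3 was at least 2-fold lower than P2 for 842 probe sets (10.4%) and higher for 551 (6.83%), and at a 4-fold limit for 84 and 26. The order of these counts depends on the scaling. With the median difference from P1 set to 0 for each protocol, which removes medians of 0.06 for P2 and -0.08 for P3, 647 were lower and 839 higher. Among the 4806 genes, 409 (8.51%) were lower on P3 and 368 (7.66%) higher.

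The genes furthest below P2 on P3 were mostly brighter on P2 than on P1. WBP2, a coactivator of transcription, read 329 on P1, 1622 on P2 and 111 on P3 (P3 minus P2, -3.65), and its other probe set was kept at 111, 220 and 85.9. TKDP1, a Kunitz protein of the ruminant placenta, read 45.2, 664 and 40.2 (-3.51), and the chromatin helicase CHD9 671, 1983 and 253 (-2.88). The lectin CD302 (288, 1106 and 158), NOA1A (284, 876 and 129) and MDFIC (64.6, 237 and 17.2) had the same shape. The glutamine transporter SLC38A2 read 394, 666 and 95.0, with another probe set lower on both at 205, 25 and 12.6, and the mitochondrial factor MTRES1, which barely passed the minimum, 29.7, 104 and 1.1. TKDP1, MDFIC and MTRES1 were at the minimum on P2 alone, so a brighter P2 was built into their choice. For 7 of the 8 genes the P2 signal was at least 2-fold above P1, SLC38A2 being the exception. For 6 of them P3 was also at least 2-fold below P1, with TKDP1 at -0.12 and CD302 at -0.79 as the exceptions, so P1 lay between the other arrays.

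In the opposite direction, PSAP, the precursor of the saposins, read 601 on P1, 2187 on P2 and 18280 on P3 (P3 minus P2, 3.05). This was its brightest probe set. At its others P2 and P3 read 46.3 and 63.2, 286 and 246, and 390 and 721, all within 2-fold of each other. HSPA8, a constitutive chaperone, read 1139, 1644 and 8671 (2.39), and the transcription factor SALL2 142, 541 and 3276 (2.55). C18H19orf48, described above, and PTOV1 (288, 393 and 2294) belonged here too. BLVRB, ARFRP1 and FOXO4 read between 10.2 and 11.2 on P2 and between 141 and 168 on P3. In all 8 genes the P3 signal was the highest of the 3 arrays. BLVRB, ARFRP1 and FOXO4 were at the minimum on P3 alone, so for them this was built into their choice. PTOV1 had another probe set that was lower on both, at 879, 130 and 322.

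By list, P3 was at least 2-fold above P2 for 11 of 73 oxidative phosphorylation genes (15.1%), 9 of 65 cytosolic ribosomal proteins (13.8%, with a median difference of 0.24 that was 0.00 under quantile normalization) and 8 of 49 chaperones (16.3%), beside 7.66% of all genes. It was lower for 3 (4.11%), 2 (3.08%) and 3 (6.12%) of them. RPS29 showed the widest gap among the ribosomal proteins, with 7958 on P1, 1606 on P2 and 6735 on P3. Zinc finger genes were lower on P3 in 9 of 59 cases (15.3%, beside 8.51% of all genes) and higher in 5 (8.47%). Their median was -0.33, and it kept its sign when the protocols were centered or quantile normalized, at -0.18 and -0.30. Of the lower ones, ZNF181, ZNF263, ZNF354A, ZNF582 and ZNF593 were at the minimum on P2 alone and had to be dimmer on P3. Of the higher ones, ZNF821 was at the minimum on P3 alone. The shares and the median of this list are thus partly set by the choice of genes. Of 5 surface epithelium genes, 2 were lower on P3 than on P2, the cadherin CDH3 (229, 110 and 42.1) and the adhesion protein EPCAM (215, 199 and 31.2). The keratin KRT18 (14.5, 7.9 and 119) was the 1 higher gene and was at the minimum on P3 alone.

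The hybridization controls, biotinylated bacterial and phage cRNAs that are added in a fixed amount when the array is loaded, read higher on the double amplified arrays. Their 9 probe sets were 1.15 to 1.99 times as bright on P2 as on P1 (median 1.70) and 2.61 to 5.91 times on P3 (median 4.71). All arrays had been scaled to the same trimmed mean. The part of this brightness in the differences above was not tested.

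Since genes of one list went opposite ways, the probe sets of single genes were compared. Of 685 genes with at least 2 annotated probe sets at the minimum, 144 had all of them in one class, 223 had a lower and a kept one, and 50 had a lower and a higher one. In 307 genes the differences of P3 from P1 spread over at least 2 log2 units, and the median spread was 1.82. PSAP covered the widest range of the genes with 3 or more such probe sets. Its 4 probe sets had P1 signals of 383 to 601, and P3 signals of 63.2, 246, 721 and 18280. SF3B1, a splicing factor, had a pair that read 311 and 335 on P1 and 10.1 and 14.7 on P3, and a pair that read 997 and 895 on P1 and 2013 and 2406 on P3. AKIRIN2 read 430 on P1 and 4.7 on P3 at one probe set and 2312 and 3991 at another, and the apoptosis inhibitor BCL2 858 and 454 at one and 70.8 and 1558 at another. For PDE4DIP the range was from 103 on P1 and 1.4 on P3 to 197 and 1593. EED, a polycomb subunit, is annotated to 23 probe sets of 20 cluster numbers, 12 of them at the minimum, and not all may belong to this gene.

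**Figure D5:**
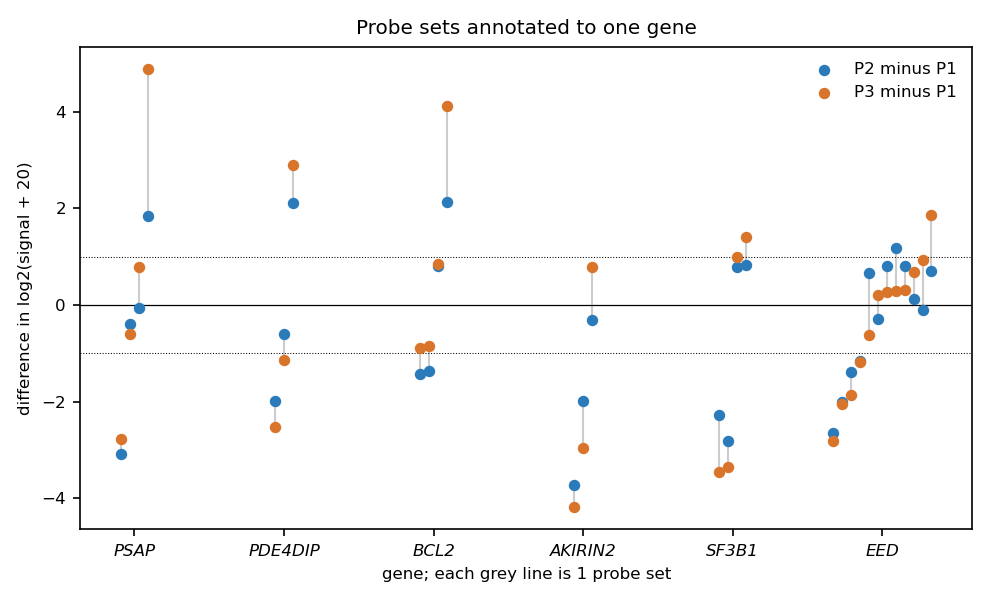
Differences from P1 in log2(signal + 20) for every probe set at the signal minimum of the 6 genes whose probe sets spread most, P2 in blue and P3 in orange, joined by a grey line per probe set. On P3 each gene has probe sets on both sides of 0, and those of PSAP run from -2.77 to 4.88.

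The names of the probe sets hold 2 features that moved with the classes. Names carry an S or an A for the strand of the cluster sequence. Of 6134 probe sets with an S 21.4% were lower under both protocols and 8.35% higher, and of 1930 with an A 10.4% were lower and 13.9% higher. Among probe sets with 1 gene symbol the shares of lower ones were 22.8% and 11.9%. The suffix tells how specific a probe set is by design: _a_at stands for several transcripts of one gene and _s_at for transcripts of several genes. Of 603 _a_at probe sets 31.5% were lower and 14.1% higher, of 110 _s_at probe sets 6.36% and 27.3%, and of 7333 with neither mark 17.9% and 9.05%. Of the 12 largest gains 3 were _s_at probe sets (METTL6, HYPK and NUDT14) and 4 _a_at, so that the gene that gave the signal is less certain for the former. The place of the probes in the transcripts was not used here, and its part in these shares was not tested.

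Of 6 oocyte markers 5 were at 100 or above on each array, and of 4 stroma markers 4 on P1, 4 on P2 and 3 on P3, as the tissue label has it. The summed signal of the oocyte markers was 6954 on P1, 4247 on P2 and 5396 on P3, and that of the stroma markers 27707, 39782 and 41162. In the stroma sum COL1A2 read 7372, 19658 and 19337, while its other probe set, not in the sum, read 12014, 10451 and 15482. COL3A1 was also brighter, at 11651, 14954 and 16177. DCN was dimmer, at 8567, 5055 and 5583, and LUM read 118, 115 and 66.3. The marker sums thus compare labelings of RNA that the study writes of as a single sample, and not numbers of cells. The sum of 4 smooth muscle markers was 7460, 2031 and 3800. The markers that carry this difference are ACTA2 and TAGLN, and another, the myosin MYH11, read 1081, 1209 and 2428. Of 3 granulosa markers on the array, 2 were at the minimum on P1, 1 on P2 and 1 on P3. INHA read 248, 243 and 274, FOXL2 202, 4.7 and 3.5, and AMH 3.9, 5.5 and 17.1. Of 4 leukocyte markers 1 was at the minimum on each array, and PTPRC, which marks nearly all of these cells, read 1.4, 6.4 and 6.1. The sum of 4 red blood cell markers was 721, 512 and 640, with HBA between 6.7 and 16.5. Of 4 endothelial markers 2 were at the minimum on P1, 1 on P2 and 2 on P3, and of 4 surface epithelium markers 1, 1 and 2. What sets these marker levels apart between the arrays was not tested.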

How the data were processed

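RNA of ovine fetal ovary was read on the Affymetrix Bovine Genome Array, with 1 array for each of 3 labeling protocols. The deposited values are linear MAS5 signal intensities, which the authors scaled to a trimmed mean of 100 on each array. The versions of MAS5 and GCOS are not given in the sources used here. Probe sets other than controls with a signal of at least 100 on any of the 3 arrays were kept, and differences of log2(signal + 20) were taken with Python 3.11.15, numpy 2.4.6 and pandas 2.3.3. A call is a 2-fold difference, and no test was run, since there are no replicates. Array signals carry no count of molecules, and the number of arrays limits the precision. The scripts were tested on simulated data.

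Gene names come from the platform annotation, in which 13292 probe sets have 1 symbol, 86 several and 10638 none, and 8492 of 9155 symbols are listed in the sheep RefSeq table. A gene is its probe set with the highest mean log2(signal + 20). "At least N-fold" reads every signal under 100 as 100. Named are the 12 largest losses and 12 largest gains by the smaller of both differences from P1. Also named are the 8 largest differences between P3 and P2 each way. From each list come up to 4 genes with the largest mean of both differences in size. To these are added up to 2 genes per list for which the larger of both differences was smallest in size. The markers COL1A2, ACTA2 and GDF9, and the 6 genes whose probe sets spread most, are named too. All other named genes (among them IGFBP3, IGFBP5, MYLK, TPM4 and RPS29) were picked once their values had been seen. The samples, lists and markers were chosen with earlier results of these data known.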

Additional observations from a re-analysis of the deposited data

How the results depend on the processing

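No paired analysis was possible because each protocol has 1 array and no result comes from a test. With a constant of 1 in place of 20, 829 probe sets were higher on P3 than on P2, and with 50, 362, against 551. A signal of at least 50 gave 5646 kept probe sets, and a signal of at least 200 gave 893 lower and 2122 kept. With a geometric mean of at least 100 over the 3 arrays, 570 were lower in place of 1515, fewer by construction since probe sets bright on P1 alone drop out. At this setting 671 were higher, so the gains outnumbered the losses. The minimum on bovine P1 gave 499 higher probe sets. With the median differences set to 0, 839 were higher and 647 lower on P3 than on P2, in place of 551 and 842. With 1 probe set per gene there were 682 lower, 494 higher, 2387 kept and 409 lower on P3 than on P2. A 4-fold minimum gave 534 lower, 71 higher, 6685 kept, 84 lower and 26 higher on P3 than on P2. No count of lower, higher or kept probe sets changed by more than 1.5 times under quantile normalization or with signals floored at 20.

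Of 239 differences of named genes, the 2-fold call was kept in 239 with a constant of 1, 230 with 50, 238 with the floor, 233 under quantile normalization and 238 with centering. Of 84 list medians, 75 kept their sign under quantile normalization, 78 with centering and 67 with all probe sets of a gene averaged.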
